A study of Rattus norvegicus with 8 samples.

Results

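Chloride transport genes of the rat hippocampus were followed here through 5 genes: Slc12a2, Slc12a4, Slc12a5, Slc12a7 and Clcn2. They were taken by their NCBI GeneIDs (83629, 29501, 171373, 308069 and 29232) from the 22601 genes for which a value was given in each library. RNA sequencing was run on the hippocampus of wild-type Wistar rats of 180 to 220 g, with 1 library per rat, 3 in the Con. group, 3 in the PTZ group and 2 in the Q808 group. PTZ (pentylenetetrazol), a blocker of GABA-A receptors, kindles rats when low doses are repeated, which makes them respond with ever stronger seizures. In the PTZ and Q808 groups it was injected at 35 mg/kg every 48 h over 28 days (14 injections), with 60 mg/kg as the last of the kindling doses, while Con. rats were given saline. For the next 28 days, Q808 rats received the anticonvulsant candidate Q808 by gavage at 30 mg/kg each day, and the Con. and PTZ rats received its solvent. The PTZ and Q808 rats were then given another low dose of PTZ before the hippocampus was collected, which the Con. rats were not, so kindling and the recent dose cannot be told apart in a comparison with Con. The ages of the rats were not given in the sources used here.

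The 5 genes encode proteins that set how much chloride a cell holds. NKCC1 (Slc12a2) carries sodium, potassium and chloride into the cell, whereas the potassium chloride cotransporters KCC1 (Slc12a4), KCC2 (Slc12a5) and KCC4 (Slc12a7) carry potassium and chloride out, and ClC-2 (Clcn2) is a chloride channel that opens on hyperpolarization. KCC2 is made by mature neurons, and the balance of NKCC1 and KCC2 decides whether chloride flows into or out of a neuron when GABA-A receptors open, so both have long been studied in epilepsy.

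The libraries differed in the tissue they held. In Con.-3, PTZ-3 and Q808-1, a list of 6 striatum markers had a mean log2(FPKM + 0.1) of 6.20 to 7.35, against 1.56 to 2.48 in the other 5 libraries, and 5 dentate granule cell markers lay at 0.00 to 0.37 against 1.88 to 2.20. Prox1, a defining transcription factor of dentate granule cells, was at 2.84 to 4.04 FPKM in those 3 libraries and at 12.2 to 16.6 FPKM in the other 5. FPKM counts fragments per kilobase of transcript, scaled to the mapped fragments of the library, so levels of different genes can be compared. Each of the 3 groups held 1 of these 3 libraries, and the differences of the 5 genes are also given within the other 5. In RNA from whole tissue, fewer cells of a type and less RNA per cell cannot be told apart.

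KCC2 and NKCC1 were the most abundant of the 5 genes. Over the 8 libraries the mean level was 92.3 FPKM for Slc12a5, 35.8 FPKM for Slc12a2, 5.93 FPKM for Slc12a4, 1.16 FPKM for Clcn2 and 1.04 FPKM for Slc12a7. The ranges of Slc12a5 (63.0 to 109.8 FPKM) and Slc12a2 (23.7 to 64.3 FPKM) met only through Q808-1, and Slc12a2 lay above Slc12a4 (4.02 to 9.08 FPKM) in every library. Slc12a4 lay above both of the lowest genes in every library. Clcn2 (0.181 to 2.34 FPKM) and Slc12a7 (0.493 to 1.60 FPKM) did not differ in level beyond their spread.

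**Figure D1:**
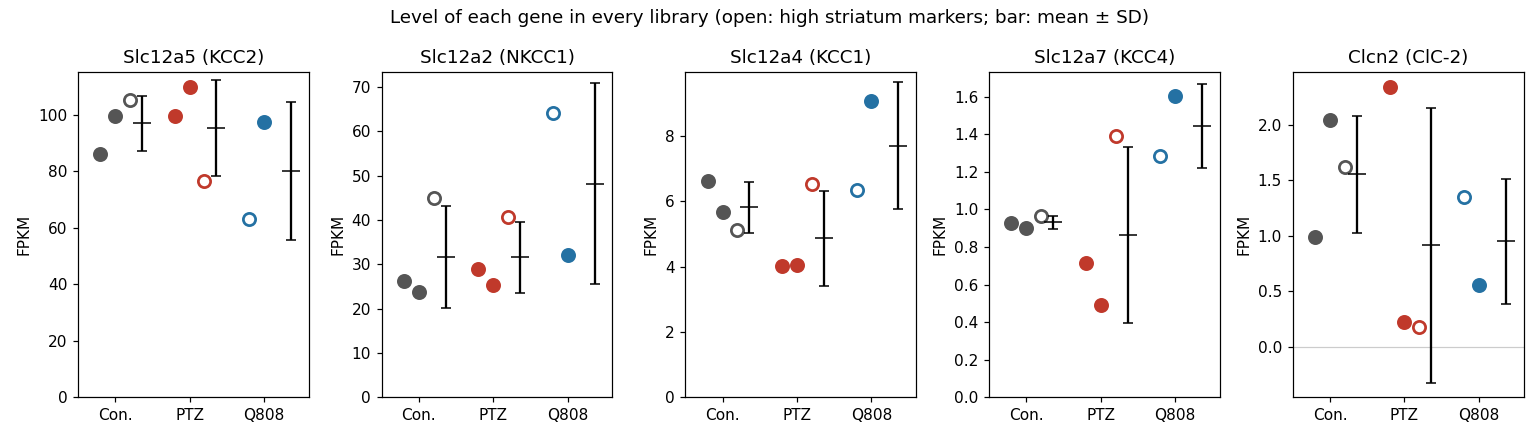
FPKM of the 5 genes in each of the 8 libraries by group, 1 panel per gene on linear axes that include 0, with the mean ± SD of each group as a bar and open symbols for the 3 libraries with high striatum markers. Slc12a2 was highest in those 3 libraries (40.7 to 64.3 FPKM), and Clcn2 ranged from 0.181 to 2.34 FPKM within the PTZ group.

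None of the 5 genes passed the test in any comparison of groups. A gene was called if its change exceeded 1.5-fold and the unadjusted p-value of limma lay below 0.05. In PTZ against Con., 0 of the 5 genes were called, against 2.53% of the 15593 genes tested. In Q808 against PTZ, 0 of 5 were called against 1.92% of all genes, and in Q808 against Con. 0 of 5 against 3.46%. None of the 5 reached an unadjusted limma p-value below 0.05, a limit that 3.78%, 2.19% and 4.28% of all genes passed in the 3 comparisons in that order, and their Benjamini-Hochberg adjusted p-values over all genes were at least 0.901. The median log2 difference of the 5 genes was -0.20 in PTZ against Con., beside -0.04 over all genes tested. It was 0.67 beside 0.10 in Q808 against PTZ, and 0.39 beside 0.04 in Q808 against Con. The 3 comparisons share libraries. The groups did not overlap for 0, 0 and 1 of the 5 genes, against 9.15%, 15.6% and 20.0% of all genes. Two-sided exact permutation p-values are given below for single genes, and 0.1 is the smallest that 3 against 3 or 2 against 3 libraries allow. Where a call appeared with libraries left out, the share of all genes called in the same fit is given with it, and a group left with 1 library took its spread from the other group.

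**Figure D2:**
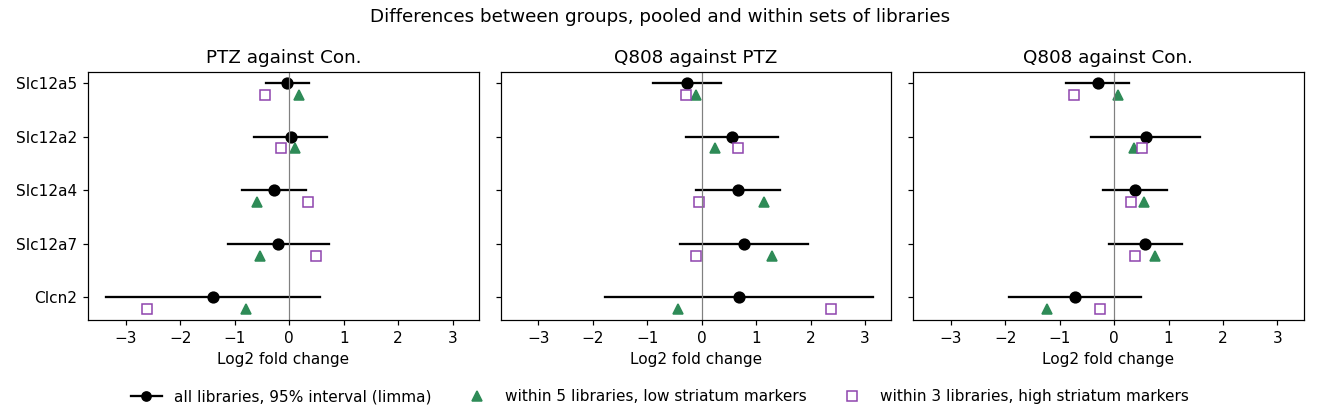
Log2 differences of the 5 genes in the 3 comparisons, with 95% confidence intervals from limma on log2(FPKM + 0.1), and the differences within the 5 libraries with low and the 3 with high striatum markers as separate symbols. Every interval includes 0.

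Slc12a5, the gene of the neuronal chloride extruder KCC2, was at 86.3, 99.7 and 105 FPKM in the Con. libraries (97.1 ± 9.70, mean ± SD, n = 3). It was at 99.8, 109.8 and 76.8 FPKM in the PTZ libraries (95.5 ± 17.0, n = 3), and at 63.0 and 97.5 FPKM in the Q808 libraries (80.2 ± 24.4, n = 2). The 3 groups overlapped, and the lowest values were those of Q808-1 and PTZ-3. The log2 difference of PTZ against Con. was -0.03 (95% confidence interval -0.43 to 0.36, exact permutation p = 0.9), an interval that lies within 1.5-fold in both directions. Its sign turned under median ratio scaling and without the 3 libraries with high striatum markers, where it was 0.17. Q808 against PTZ gave -0.27 (-0.90 to 0.36, exact permutation p = 0.5), and Q808 against Con. -0.30 (-0.88 to 0.27, exact permutation p = 0.4). The last value rested on Q808-1, since it was 0.011 without Q808-1. Without Q808-2, with Q808-1 as the only library of its group, it was -0.62 and called, as were 11.5% of all genes. Within the 5 libraries with low striatum markers, where Slc12a5 was at 98.6 ± 8.38 FPKM (SD, n = 5), Q808 differed from PTZ by -0.10 and from Con. by 0.071.

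Neuron markers were also lower in these libraries. The summed FPKM of 5 neuron markers was 972 to 1439 in Con.-3, PTZ-3 and Q808-1 and 1814 to 2392 in the other 5 libraries, while Slc12a5 was lowest in 2 of those 3 libraries and near its highest in Con.-3. Their part in the Q808-1 value was not tested.

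Slc12a2, the gene of the chloride loader NKCC1, was at 26.3, 23.7 and 45.0 FPKM in the Con. libraries (31.7 ± 11.6, n = 3). The PTZ libraries had 28.9, 25.3 and 40.7 FPKM (31.6 ± 8.05, n = 3), and the Q808 libraries 64.3 and 32.1 FPKM (48.2 ± 22.7, n = 2). Within each group, the library with high striatum markers was the highest. Taken over groups, these 3 libraries had 50.0 ± 12.6 FPKM (SD, n = 3) and did not overlap the other 5, at 27.3 ± 3.31 FPKM (SD, n = 5). Of all genes tested, 15.2% were higher in those 3 libraries without overlap.

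PTZ against Con. differed by 0.03 in log2 for Slc12a2 (95% confidence interval -0.64 to 0.70, exact permutation p = 1.0), with a sign that changed with the library left out. The values were 0.55 (-0.29 to 1.39, exact permutation p = 0.4) in Q808 against PTZ and 0.58 (-0.43 to 1.59, exact permutation p = 0.4) in Q808 against Con. Without Q808-1 the differences were 0.054 from PTZ and 0.081 from Con., with PTZ-3 and Con.-3 still in their groups. Without Q808-2, with Q808-1 as the only library of its group, Q808 against PTZ was 1.05 and called, as were 8.34% of all genes. Within the 5 libraries with low striatum markers, Q808 differed from PTZ by 0.25 and from Con. by 0.36, and PTZ from Con. by 0.11. Between the 3 libraries with high striatum markers, Q808-1 differed from PTZ-3 by 0.66 and from Con.-3 by 0.51, and PTZ-3 from Con.-3 by -0.14. The summed FPKM of 8 oligodendrocyte markers was 7013 to 13851 in the 3 libraries where Slc12a2 was high and 2700 to 4484 in the other 5. Among those 5, Q808-2 had the most Slc12a2 (32.1 FPKM), but its marker sum (3450) lay below those of PTZ-1 (4484) and Con.-1 (4465). By group the sum was 2700 to 7013 in Con., 3193 to 7086 in PTZ and 3450 to 13851 in Q808. All 8 markers were above 0 in log2 difference in Q808 against PTZ, with none called. Within the 5 libraries with low striatum markers their median difference in that comparison was -0.12. None of the 8 was at 0, and their part in the Slc12a2 values was not tested.

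The ratio of Slc12a5 to Slc12a2 FPKM was taken from whole tissue and is not the balance within neurons. It was 3.28, 4.20 and 2.34 in the Con. libraries. It was 3.46, 4.35 and 1.89 in the PTZ libraries and 0.98 and 3.03 in the Q808 libraries. Q808-1 was the only library with more Slc12a2 than Slc12a5. It also had the lowest summed FPKM of the neuron markers (972) and the highest of the oligodendrocyte markers (13851). Their part in the ratio was not tested. The log2 ratio was 1.67 ± 0.42 in Con. (SD, n = 3), 1.61 ± 0.62 in PTZ (SD, n = 3) and 0.79 ± 1.15 in Q808 (SD, n = 2). The groups overlapped, and the difference of Q808 from Con. (-0.88) was -0.07 without Q808-1 and -1.70 without Q808-2, with Con.-3 kept. Across groups the ratio was 3.03 to 4.35 in the 5 libraries with low striatum markers and 0.98 to 2.34 in the other 3. Every group held a ratio from each of these ranges. In both sets of libraries the lowest ratio was that of the Q808 library, 3.03 in Q808-2 and 0.98 in Q808-1.

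**Figure D3:**
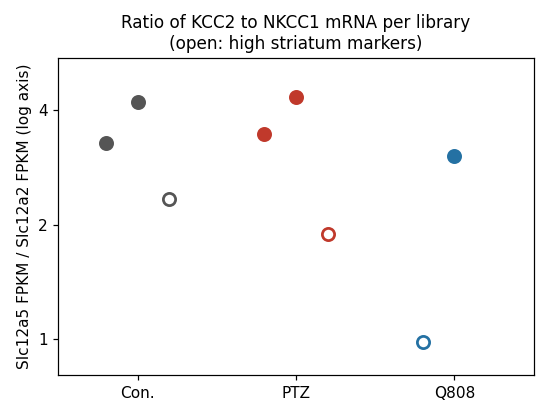
Ratio of Slc12a5 to Slc12a2 FPKM in each library by group, on a log axis, with open symbols for the 3 libraries with high striatum markers. Those 3 libraries lie at 0.98 to 2.34 and the other 5 at 3.03 to 4.35.

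Slc12a4 and Slc12a7, the genes of the less abundant extruders KCC1 and KCC4, followed each other more closely over the libraries than any other pair among the 5 genes. Each gene was centred on its own mean log2 level, and the root mean square difference of the pair was 0.22 over 8 libraries, with both on the same side of their means in 7 of 8. For Slc12a2 and Slc12a5 it was 0.67, with 2 of 8 on the same side. The 250 bases before the RefSeq start of Slc12a4 (chr19:50770123-50770372, minus strand) and Slc12a7 (chr1:31354626-31354875, minus strand) are shown because these genes varied together, with Slc12a5 (chr3:174115583-174115832, plus strand), which did not follow them, for contrast. Coordinates and sequences are those of the RefSeq table of assembly GRCr8, and all 5 genes had an entry. Capitals mark the GC box GGGCGG, known as a binding motif of Sp1, on either strand, and neighbouring matches may overlap.
Slc12a4: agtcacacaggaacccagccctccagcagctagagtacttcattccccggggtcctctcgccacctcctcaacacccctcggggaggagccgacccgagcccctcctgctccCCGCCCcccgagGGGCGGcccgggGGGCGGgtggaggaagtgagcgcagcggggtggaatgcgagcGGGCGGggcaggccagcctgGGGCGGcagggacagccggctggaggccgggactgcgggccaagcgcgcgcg
Slc12a7: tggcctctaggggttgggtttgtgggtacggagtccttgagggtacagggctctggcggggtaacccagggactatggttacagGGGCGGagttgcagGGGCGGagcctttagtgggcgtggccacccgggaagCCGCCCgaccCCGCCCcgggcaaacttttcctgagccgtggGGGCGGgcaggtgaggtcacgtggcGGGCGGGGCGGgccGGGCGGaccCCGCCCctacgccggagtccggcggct
Slc12a5: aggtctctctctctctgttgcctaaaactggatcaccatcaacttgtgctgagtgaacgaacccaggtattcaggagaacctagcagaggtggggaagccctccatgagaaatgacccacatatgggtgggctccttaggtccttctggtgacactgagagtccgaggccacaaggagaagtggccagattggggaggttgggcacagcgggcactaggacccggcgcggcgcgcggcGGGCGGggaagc
The motif occurred 5 times before Slc12a4, 9 times before Slc12a7 and 1 time before Slc12a5. Of 33469 sequences of the same length in the table, 30.5% held at least 1, 1.72% at least 5 and 0.0956% at least 9. The share of G and C was 74.8%, 71.6% and 59.2% in that order, against a median of 51.2% over the table. These counts describe the sequences and were not tied to binding or to the expression values. The sequences before Slc12a2 and Clcn2 are not shown here, and a single contrast gene cannot link the motif to a shared profile.

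Slc12a4 was at 6.63, 5.69 and 5.11 FPKM in the Con. libraries (5.81 ± 0.767, n = 3), at 4.02, 4.05 and 6.54 FPKM in the PTZ libraries (4.87 ± 1.45, n = 3) and at 6.33 and 9.08 FPKM in the Q808 libraries (7.71 ± 1.94, n = 2). PTZ-1 and PTZ-2 were the lowest libraries and Q808-2 was the highest, while PTZ-3 lay among the Con. and Q808 values. PTZ against Con. gave a log2 difference of -0.28 (95% confidence interval -0.87 to 0.30, exact permutation p = 0.3). Q808 against PTZ gave 0.67 (-0.11 to 1.45, exact permutation p = 0.3), and Q808 against Con. gave 0.39 (-0.20 to 0.97, exact permutation p = 0.3). In Q808 against PTZ, Slc12a4 was called under several alternatives. Without PTZ-3 the difference was 0.90 and called, as were 10.1% of all genes. With all libraries it was called in a fit of all groups (0.67, 2.59% of all genes) and with the striatum list as a covariate (0.67, 4.69%). With the replicate number as a block, where PTZ-3 has no Q808 partner and adds nothing to the difference, it was 0.90 and called (12.1%). Without Con.-3, PTZ-3 and Q808-1, Slc12a4 was called lower in PTZ against Con. (-0.59) and higher in Q808 against PTZ (1.15). In those fits 9.81% and 9.26% of all genes were called, and the Q808 group was the single library Q808-2. In the same 5 libraries Q808 differed from Con. by 0.56, while between the 3 libraries with high striatum markers PTZ-3 lay above Con.-3 by 0.35.

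Slc12a7 was nearly equal in the Con. libraries, at 0.928, 0.899 and 0.964 FPKM (0.931 ± 0.033, n = 3). It was at 0.712, 0.493 and 1.39 FPKM in the PTZ libraries (0.866 ± 0.468, n = 3) and at 1.29 and 1.60 FPKM in the Q808 libraries (1.44 ± 0.224, n = 2). Both Q808 libraries lay above all Con. libraries, as 1 of the 5 genes with no overlap in that comparison, against 20.0% of all genes without overlap in either direction. The log2 difference of Q808 from Con. was 0.58 (95% confidence interval -0.09 to 1.25, limma p = 0.079, exact permutation p = 0.1, the smallest possible). It was 0.78 in Q808 against PTZ (-0.40 to 1.96, exact permutation p = 0.3) and -0.20 in PTZ against Con. (-1.13 to 0.72, exact permutation p = 0.7), where the sign turned with a library left out. Without PTZ-3, Q808 against PTZ was 1.15 and called, as were 10.1% of all genes. Without Con.-3, PTZ-3 and Q808-1 it was 1.29 and called, as were 9.26% of all genes, and in the same 5 libraries Q808 differed from Con. by 0.75 and PTZ from Con. by -0.55. Between the 3 libraries with high striatum markers the difference of Q808-1 from PTZ-3 was -0.11.

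Markers of choroid plexus, meninges and blood vessels differed between the same libraries. The summed FPKM of 7 choroid plexus markers was 91.8 to 2534 in Con., 277 to 492 in PTZ and 163 to 6437 in Q808, with 1 of the 7 at 0 in each library. Ttr, the thyroid hormone carrier transthyretin and the most abundant of them, was at 2495, 2462 and 87.4 FPKM in Con., at 399, 271 and 475 FPKM in PTZ, and at 156 and 6301 FPKM in Q808. Q808-2, the library with the most Ttr, also had the most Slc12a4 and Slc12a7, while Con.-3 and Q808-1, with the least Ttr, had 5.11 and 6.33 FPKM of Slc12a4. Of 5 meningeal fibroblast markers, none at 0, the mean log2(FPKM + 0.1) was 1.49, 1.13 and -0.50 in Con., 0.55, 0.18 and 1.44 in PTZ and 0.76 and 2.22 in Q808. Within PTZ these markers, like Slc12a4 and Slc12a7, were highest in PTZ-3, and over all libraries in Q808-2. Con.-3 had the lowest value of these markers, with the lowest Slc12a4 (5.11 FPKM) but the highest Slc12a7 (0.964 FPKM) of the Con. libraries. The summed FPKM of the meningeal markers was 4.54 to 22.7 in Con., 17.4 to 19.4 in PTZ and 12.2 to 46.6 in Q808. The summed FPKM of 5 endothelial markers was 79.4 to 84.2 in Con., 63.5 to 151 in PTZ and 93.7 to 171 in Q808. The part of these 3 marker lists in the values of Slc12a4 and Slc12a7 was not tested.

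Clcn2 had the widest spread of the 5 genes, with a coefficient of variation of 70.3% over the 8 libraries. It was at 0.991, 2.04 and 1.62 FPKM in Con. (1.55 ± 0.528, n = 3), at 2.34, 0.218 and 0.181 FPKM in PTZ (0.913 ± 1.24, n = 3) and at 1.35 and 0.552 FPKM in Q808 (0.949 ± 0.562, n = 2). The PTZ group held both the highest and the lowest library, which differed 13.0-fold. The log2 difference of PTZ from Con. was -1.40 (95% confidence interval -3.37 to 0.56, exact permutation p = 0.4), that of Q808 from PTZ 0.69 (-1.77 to 3.15, exact permutation p = 0.6) and that of Q808 from Con. -0.71 (-1.92 to 0.50, exact permutation p = 0.4). Without PTZ-1, Clcn2 was called lower in PTZ against Con. (-2.41, with 1.89% of all genes called) and higher in Q808 against PTZ (1.70, with 0.847% called). With all 3 PTZ libraries, Q808 against PTZ was 0.12 without Q808-1, beside 0.69 with Q808-1 included. Within the 5 libraries with low striatum markers Q808 differed from PTZ by -0.43 and from Con. by -1.23, and PTZ from Con. by -0.79. In GRCr8 Clcn2 overlaps Fam131a, which was listed at 0 in 6 of 8 libraries and at most at 0.042 FPKM in the rest, and its other neighbour Polr2h, a subunit of RNA polymerase II that every cell uses, was listed at 0 in all 8. How fragments were assigned at this locus is not given in the sources used here, so the Clcn2 values are less certain than those of the cotransporters. Slc12a4 and Slc12a5 each overlap another gene in GRCr8 that was not among the genes with values here. Whether fragments were counted by strand is not given either.

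Of 61 further genes in 6 lists of chloride and ion handling, 59 were tested (Slc12a1 and Lrrc8e were too low), and 1, Slc4a2, was called in Q808 against PTZ and in Q808 against Con., beside 1.92% and 3.46% of all genes. Slc4a2 encodes AE2, an exchanger that moves chloride into the cell in return for bicarbonate. It was at 8.16, 8.57 and 7.26 FPKM in Con. (8.0 ± 0.670, n = 3), at 5.61, 4.45 and 7.60 FPKM in PTZ (5.89 ± 1.60, n = 3) and at 11.8 and 18.6 FPKM in Q808 (15.2 ± 4.81, n = 2). The Q808 libraries lay above all others. The same held for 3 erythroid markers, none at 0, whose summed FPKM was 1230 and 931 in Q808, 176 to 445 in Con. and 339 to 571 in PTZ. In other respects they differed from Slc4a2. Q808-1 had more of these markers than Q808-2 but less Slc4a2. Their mean sum was higher in PTZ (482) than in Con. (298), whereas mean Slc4a2 was lower in PTZ. The part of these markers in the Slc4a2 values was not tested. Slc4a2 was higher in Q808 than in PTZ, by 1.35 in log2 (SE 0.32, limma p = 0.005, exact permutation p = 0.1), and higher than in Con., by 0.88 (SE 0.24, limma p = 0.012, exact permutation p = 0.1). Neither passed the Benjamini-Hochberg adjustment of limma's p-values over all genes (adjusted p = 0.952 and 0.901). PTZ against Con. gave -0.47 (exact permutation p = 0.2). Without Q808-2, the library with the most choroid plexus RNA, the difference from Con. was 0.55 and no longer over 1.5-fold. Over all alternatives the difference was 1.02 to 1.87 from PTZ and 0.55 to 1.21 from Con. Without PTZ-3, PTZ against Con. was -0.66 and called, as were 7.28% of all genes. Within the low and the high striatum libraries Q808 lay above PTZ by 1.87 and 0.62 and above Con. by 1.14 and 0.69.

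**Figure D4:**
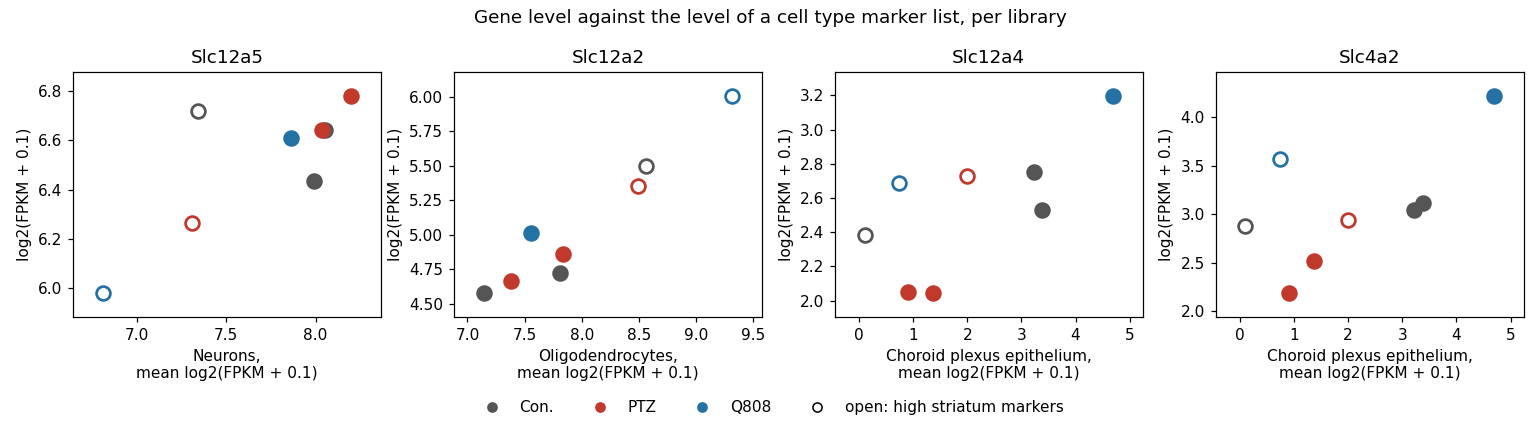
Level of Slc12a5, Slc12a2, Slc12a4 and Slc4a2 in the 8 libraries, as log2(FPKM + 0.1), against the mean log2(FPKM + 0.1) of neuron, oligodendrocyte and, for the last 2 genes, choroid plexus markers, with points coloured by group and open for the 3 libraries with high striatum markers. Those 3 libraries hold the 3 highest values of Slc12a2 and of the oligodendrocyte markers, and Q808-2 holds the highest values of Slc12a4, Slc4a2 and the choroid plexus markers.

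In the other lists no gene was called. They were the other Slc12 genes (among them Slc12a9, at 6.51 FPKM in the mean), the WNK and SPAK kinases that phosphorylate the cotransporters with their partners (11 genes, led by Cab39 at 45.2 FPKM and Cul3 at 33.1 FPKM), and the partners and regulators of KCC2 (11 genes, led by brain creatine kinase Ckb at 933 FPKM and Pacsin1 at 72.5 FPKM). The remaining lists were other chloride channels (Ttyh1 at 259 FPKM, Mlc1 at 143 FPKM) and the sodium pump (Atp1b1 at 900.3 FPKM). In the list of bicarbonate transporters and carbonic anhydrases, 1 of 7 genes was called, and Car2 (242 FPKM) and Slc4a10 (38.9 FPKM) were the most abundant.

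**Figure D5:**
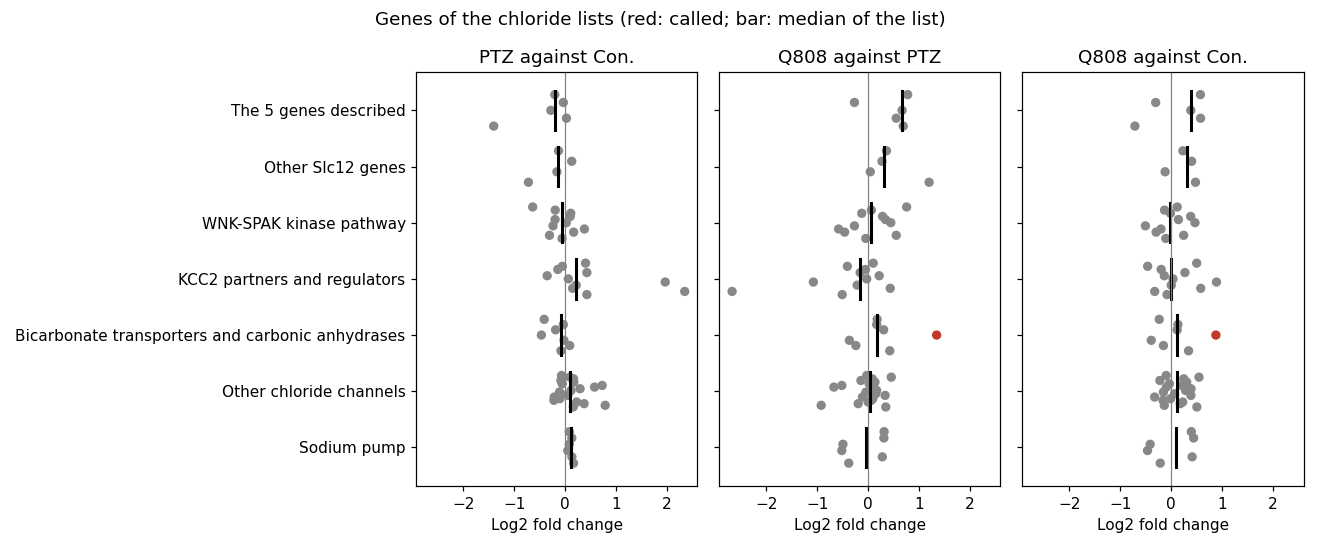
Log2 differences of the genes of the 6 lists and of the 5 genes described, 1 point per gene, in the 3 comparisons, with the list medians and the called genes marked. Slc4a2 is the called gene, at 1.35 in Q808 against PTZ and 0.88 in Q808 against Con.

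Among the KCC2 regulators, the growth factor Bdnf, its receptor Ntrk2 and the transcription factor Egr4 are named here after their values were seen. Bdnf, known to lower KCC2 in mature neurons, was at 7.25, 7.53 and 1.31 FPKM in Con., 41.7, 95.8 and 2.52 FPKM in PTZ and 1.5 and 7.28 FPKM in Q808. The log2 difference of PTZ from Con. was 2.35 and was not called (exact permutation p = 0.3). Without PTZ-3 the difference was 3.88 and called, as were 7.28% of all genes, and with the replicate number as a block it was 2.35 and called (3.95% of all genes). Without Con.-3, PTZ-3 and Q808-1 it was 3.08 (limma, adjusted p = 0.038, against 0.999 with all libraries and the lowest among the alternatives), in a fit that called 9.81% of all genes. Egr4, an immediate early transcription factor known to activate the KCC2 gene, was at 8.08, 8.51 and 35.3 FPKM in Con., 48.7, 172 and 17.7 FPKM in PTZ and 31.8 and 19.7 FPKM in Q808, a difference of 1.97 in PTZ against Con. (exact permutation p = 0.2). It was 2.66 without Con.-3 and 2.76 without PTZ-3, and called in both, beside 4.1% and 7.28% of all genes. Within the 5 libraries with low striatum markers it was 3.45, and PTZ-3 (17.7 FPKM) lay below Con.-3 (35.3 FPKM). Ntrk2 was higher in PTZ than in Con. by 0.43 without overlap, and by 0.57 within the 5 libraries with low striatum markers (limma p with all libraries = 0.022, exact permutation p = 0.1, adjusted p = 0.999) and under 1.5-fold, in a comparison where 9.15% of all genes did not overlap. In PTZ-1 and PTZ-2, where Bdnf and Egr4 were high, Slc12a5 was at 99.8 and 109.8 FPKM. It was at 86.3 and 99.7 FPKM in Con.-1 and Con.-2, a log2 difference of 0.17. In PTZ-3, where Bdnf was at 2.52 FPKM, Slc12a5 was at 76.8 FPKM, beside 105 FPKM in Con.-3, a log2 difference of -0.45. The part of Bdnf and Egr4 in the Slc12a5 values was not tested.

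The genes whose profiles over the 8 libraries were most like each of the 5 were sought among 12377 genes with a mean of at least 1 FPKM, by the root mean square difference of centred log2 levels. For Slc12a2 they included Matn4 (0.074) and Fgfr2 (0.084), where the median gene was at 0.496. Slc12a5 was most like Nup58 (0.055), Top1 (0.069) and Braf (0.070), with a median of 0.398. Slc12a4 was nearest to Ndufaf6 (0.103), Col27a1 (0.105) and Cab39l (0.117), and Slc12a7 to Hspg2 (0.132), Btbd19 (0.133) and Ccdc141 (0.142), with medians of 0.403 and 0.469. Clcn2 had no close match, with 0.823 for its nearest gene Prss22.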

How the data were processed

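The deposited values were FPKM per gene, which the authors computed with Cufflinks after trimming the reads with Trimmomatic. The submitters' processing notes also list HISAT2, Bowtie2, StringTie, SAMtools, HTSeq and DESeq. The genome build and the tool versions are not given in the sources used here, and read counts were not used here. The depth is unknown from FPKM alone, so precision is given by the spread between rats, and counting error was not computed. FPKM summed to 362840 to 402556 per library over the 22601 genes.

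Groups came from the labels. Symbols for 20633 genes, neighbouring genes and promoters came from the RefSeq tables of GRCr8, and no coordinates of the files were used. Genes whose FPKM averaged 0.1 or more (15593) were tested on log2(FPKM + 0.1), a scale that understates the changes of low genes. Each pair of groups was fitted separately with limma 3.58.1 in R 4.3.3, using a mean-variance trend and Benjamini-Hochberg adjustment over all genes tested. A call needed a change over 1.5-fold and p below 0.05 before adjustment. Exact permutation tests were two-sided. Tables and figures were made with Python 3.11.15, numpy 2.4.6, pandas 2.3.3 and matplotlib 3.10.9, and the limma step was tested on simulated data.

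The 5 genes, the 13 marker lists (68 genes) and the 6 lists of chloride and ion handling (61 genes) were chosen with earlier results of these data known. Named genes were the 5, the 3 genes with the most similar profile for each, and in each list the called genes and the 2 with the highest mean FPKM. Some genes that this rule names are not reported here. Same-numbered Con. and PTZ libraries deviated together from their group means (r = 0.212, 0.299 and 0.422 across genes, which are not independent replicates). Con.-3 and PTZ-3 were each the library with high striatum markers in their group, and the deviations within a group cancel out. The shared number and the striatum markers therefore cannot be told apart in these correlations. A fit with the replicate number as a block was run beside each comparison. It changed no call of the 5 genes in PTZ against Con. The other alternatives were other pseudocounts and filters, all groups in a fit, no trend, other scalings, the striatum list as a covariate, the fit without the 3 libraries with high striatum markers, and each library left out in turn.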

Additional observations from a re-analysis of the deposited data

How the results depend on the processing

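In PTZ against Con. 0 of the 5 genes were called, and 1 was without Con.-3, PTZ-3 and Q808-1, in a fit that called 9.81% of all genes. Without those 3 libraries the Q808 group was the single library Q808-2, which differed from PTZ by 1.15 for Slc12a4 and 1.29 for Slc12a7. In Q808 against PTZ the count of 0 became 1 with all groups in a fit (2.59% of all genes called). It became 3 with the replicate block (Slc12a2, Slc12a4 and Slc12a7, where 12.1% of all genes were called). With the striatum list as a covariate it was 1 (4.69%). In Q808 against Con. it became 1 with the replicate block (Slc12a2, where 6.9% of all genes were called). Leaving out single libraries gave counts of 0 to 1, 0 to 2 and 0 to 1 in the 3 comparisons, where 1.6% to 7.28%, 0.847% to 10.1% and 1.79% to 11.5% of all genes were called. The cause was not tested. Q808 shares only 2 replicate numbers with the other groups, so the block there joins libraries by number alone. It drops replicate 3 of PTZ or Con. from the difference. Among the libraries left, only Q808-1 had high striatum markers (mean log2 level 6.20, against 1.78 in PTZ-1 and 1.56 in Con.-1). The part of this in the Slc12a2 calls was not tested.

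Some log2 differences changed sign. In PTZ against Con., Slc12a5 was 0.0095 under median ratio scaling and 0.17 without Con.-3, PTZ-3 and Q808-1. Leaving out single libraries gave -0.14 to 0.11 for it, -0.17 to 0.31 for Slc12a2 and -0.57 to 0.10 for Slc12a7. In Q808 against PTZ, Clcn2 was -0.43 without Con.-3, PTZ-3 and Q808-1, and Slc12a5 was -0.58 to 0.046 with single libraries left out. In Q808 against Con., Slc12a5 was 0.071 without Con.-3, PTZ-3 and Q808-1 and -0.62 to 0.011 with single libraries left out. With 2 or 3 rats in a group and no counts in the files, small differences could not be resolved.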
